A study of Mus musculus with 10 samples.

Results

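S100 proteins are small calcium-binding proteins, and 8 of their genes (S100b, S100a1, S100a4, S100a6, S100a10, S100a11, S100a13 and S100a16) were followed here among the 48709 genes of the tables. They were chosen by gene symbol, and all 8 were found. Supporting cells are the non-sensory cells that surround hair cells in the utricle, a balance organ of the inner ear, and here they were sorted from utricles of Lfng-EGFP mice (Lfng-GFP+ in the sample labels) of postnatal day 21 after culture. TRULI is an inhibitor of the Lats kinases, which hold back the co-activator Yap. The labels give 3 libraries cultured for 5 days with 0.1% DMSO, the vehicle, and 3 cultured for 5 days with 10 µM TRULI in 0.1% DMSO. They give 2 libraries with 5 days of DMSO and 2 with 5 days of TRULI that were each followed by 5 days without treatment, called recovery below. All 10 libraries thus came from explants carrying the same reporter, none was uncultured, and the replicates are described in the study's methods as biological. Neither labels nor methods say which animals or cultures each came from, so p-values measure the spread between these samples.

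Most S100 proteins form dimers and carry a pair of EF-hands, the helix-loop-helix folds that bind calcium; binding opens a surface that docks on partner proteins. S100a10 has lost calcium binding and stays in the docking shape, joined to annexin A2. S100 proteins are also known as cell type markers: S100b for astrocytes and Schwann cells, S100a4 for fibroblasts and migrating cells, and S100 antibodies are widely used to stain cells of the inner-ear sensory epithelia.

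For 4 libraries the label and the name under which the table was deposited give different conditions. Replicates 1 and 2 labelled TRULI at 5 days carry a deposited name of DMSO after recovery, and replicates 1 and 2 labelled DMSO after recovery carry a deposited name of TRULI at 5 days. The other 6 libraries, which are the 3 of DMSO at 5 days, replicate 3 of TRULI at 5 days and both of TRULI after recovery, have 1 condition in both sources. Comparisons are given by the labels and, beside them, by the deposited names, and 1 comparison rests on agreeing libraries alone. The summed level of 6 Yap response genes was 1389 CPM (counts scaled to a common library size with TMM factors) in the agreeing TRULI library of 5 days, 1172 and 1275 in the 2 libraries labelled DMSO after recovery, and 76.9 to 456 in the other 7 libraries. In the same order 7 proliferation markers summed to 80.4 CPM, to 380 and 261 CPM, and to 1.80 to 21.2 CPM in the other 7 libraries. The tables summed to 2463872 to 6255149 counts. The mitochondrial rRNA mt-Rnr2 took 1.45 to 2.53% of the counts in 4 libraries (replicates 1 and 2 labelled TRULI at 5 days and both of TRULI after recovery) and 13.02 to 26.4% in the other 6.

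The labelled cell type was checked by its markers: 13 of 13 supporting cell markers passed the filter on low counts, and their summed level was 8135 to 18163 CPM. Markers of other cell types had lower sums. The 12 hair cell markers summed to 47.7 to 946 CPM, the 10 Schwann and satellite glia markers to 48.1 to 138 CPM and the 9 fibroblast and mesenchyme markers to 20.8 to 126 CPM. The hair cell sum varied most, at 946 and 156 CPM in the 2 libraries of TRULI after recovery and 746 CPM in replicate 3 of TRULI at 5 days. Its part in the S100 results was not tested. Of the 9 macrophage markers 5 had no count in any library, as had 3 of the 6 melanocyte markers and 2 of the 6 endothelial markers. These lists summed to 0.872 to 18.1, 8.77 to 47.5 and 0 to 2.96 CPM. Mitf and Pmel of the melanocyte list and Cd68 of the macrophage list had 579, 308 and 229 counts over the 10 libraries.

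On the genome (GRCm38, positions from GENCODE M21) 7 of the 8 genes lie on chromosome 3 and S100b lies alone on chromosome 10 at chr10:76253853-76261159, plus strand. S100a1 (chr3:90511034-90514392, minus strand), S100a13 (chr3:90514435-90524581), S100a16 (chr3:90537254-90543151), S100a4 (chr3:90603771-90606045) and S100a6 (chr3:90612882-90624181) sit within 113148 bases. S100a11 (chr3:93520488-93526287) and S100a10 (chr3:93555080-93564643) follow 2896306 bases further on, and all but S100a1 are on the plus strand. S100a1 and S100a13 are transcribed away from each other with 42 bases between the annotated genes. That interval is shown because the 2 genes on either side of it differed widely in level. The 100 bases before S100b, S100a11 and S100a4 are shown too. They end before the RefSeq start for S100b and S100a4, and before the GENCODE start given above for S100a11. S100b had its own highest levels in DMSO at 5 days, S100a11 had its own in the libraries of low mt-Rnr2, and S100a4 had almost no reads. All are from the RefSeq promoter table (GRCm38.p6), plus strand, and capitals mark a TATA motif.
S100a1-S100a13 interval, chr3:90514393-90514434: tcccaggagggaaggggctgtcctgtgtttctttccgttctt
S100b, chr10:76253736-76253835: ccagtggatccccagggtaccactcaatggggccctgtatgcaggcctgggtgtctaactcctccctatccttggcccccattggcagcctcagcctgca
S100a11, chr3:93520388-93520487: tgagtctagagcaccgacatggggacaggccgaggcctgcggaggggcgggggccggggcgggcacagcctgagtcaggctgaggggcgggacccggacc
S100a4, chr3:90603670-90603769: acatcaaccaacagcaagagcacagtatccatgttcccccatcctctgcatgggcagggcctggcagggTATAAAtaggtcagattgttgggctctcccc

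The table held 8 windows for 7 of the 8 genes and none for S100a10, and each window was searched over the 250 bases before its RefSeq start on both strands. GGAATG, the core that Tead factors, the DNA-binding partners of Yap, recognise, was in 0 of the 8 windows and in 12.6% of 32851 windows of the same length. TATAAA was in 1 of the 8, that of S100a4, 31 bases before the start, and in 12.4% of all windows. G and C made up 50.0 to 61.6% of the bases of the 8 windows, against a median of 52.4% over all windows.

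S100a1, a regulator of calcium cycling best known in heart muscle and neurons, was the dominant S100 transcript. Levels of different genes are compared as FPKM (fragment counts scaled to effective gene length and to the protein-coding total of the library). S100a1 had a median of 16313 FPKM over the 10 libraries, the highest median of 21630 protein-coding genes and above mt-Co1 at 7515 FPKM and Actg1, a cytoplasmic actin, at 5101 FPKM. It ranked first in 6 libraries, the 3 of DMSO at 5 days, replicate 3 of TRULI at 5 days and the 2 labelled DMSO after recovery. Its rank was 5 and 8 in replicates 1 and 2 labelled TRULI at 5 days and 3 and 11 in TRULI after recovery. S100a1 took 0.181 to 1.55% of all protein-coding counts.

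The other genes followed far behind, with median FPKM of 435 for S100a10, 395 for S100a11, 190 for S100b, 126 for S100a16, 45.8 for S100a13, 23.7 for S100a6 and 2.38 for S100a4. S100a10 (211 to 685 FPKM), S100a11 (209 to 1324 FPKM) and S100b (104 to 937 FPKM) overlapped in range over libraries, so their order by median held only as a summary. S100a13 and S100a1, for which the 42-base interval is shown above, differed 64.2-fold to 736-fold in FPKM within a library. S100a4 had at most 4 counts in any library, and 0 in 4 of them. Of 8 further S100 genes in the tables, S100a5, S100a7a, S100g and S100z had 0 counts, S100a3, S100a8 and S100a9 had 1 or 2 counts over all 10 libraries, and S100a14 had 40.

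The summed FPKM of the 8 genes was 16231 to 36260 in the 6 libraries of high mt-Rnr2 and 6065 to 7562 in the 4 of low mt-Rnr2. S100a1 made up 90.2 to 97.0% of that sum in the former and 64.9 to 74.2% in the latter. S100a10, S100a11 and S100a16 together made up 1.98 to 4.48% and 23.4 to 31.6%. Without S100a1 the sum was 884 to 2106 FPKM and 1563 to 2269 FPKM in the same sets, so the split in the total lay in S100a1.

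**Figure D1:**
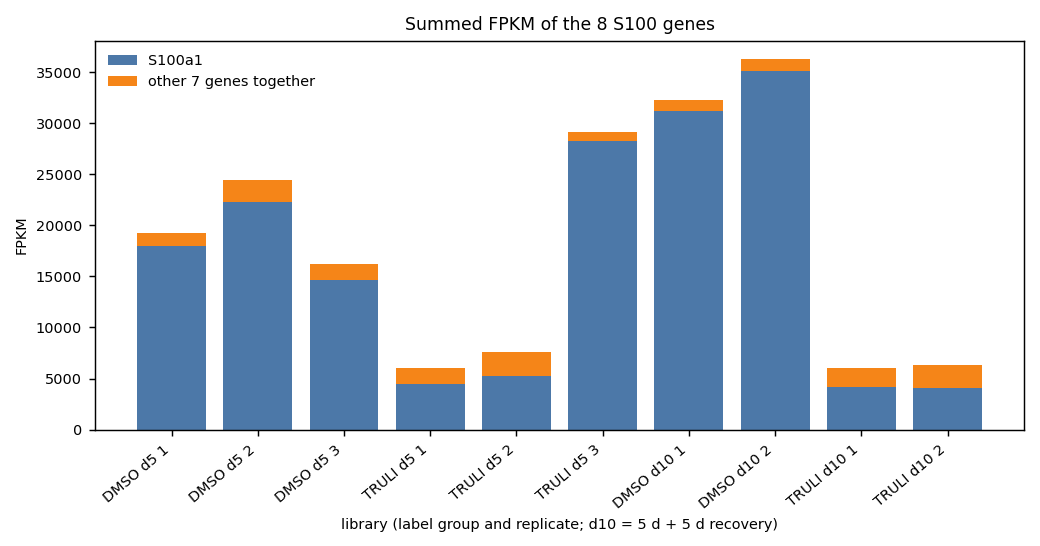
Stacked bars give the FPKM of S100a1 and of the other 7 genes together in each of the 10 libraries, named by label; d10 marks 5 days of treatment and 5 of recovery. S100a1 fills most of every bar, and the 4 shortest bars, 6065 to 7562 FPKM, are the libraries of low mt-Rnr2.

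S100b, secreted and intracellular and a classical marker of glia, was highest in DMSO at 5 days. Its level was 708, 946 and 863 CPM in the 3 libraries of DMSO at 5 days, 122, 143 and 133 CPM in those labelled TRULI at 5 days, 214 and 275 CPM in those labelled DMSO after recovery, and 121 and 150 CPM in TRULI after recovery. Every one of the 7 other libraries lay below every library of DMSO at 5 days, so that the order did not depend on the 4 disputed libraries. In these bulk samples, fewer cells of a type and less RNA per cell cannot be told apart. The summed level of the supporting cell markers moved with it, from 14262 to 18163 CPM in DMSO at 5 days to 8135 to 10558 CPM in the other 7 libraries. Single markers did not all follow the sum. In TRULI after recovery against DMSO at 5 days Lfng fell by 2.67 on the log2 scale (edgeR adjusted p = 0.00376). Otoa, Otogl, Otog and Sox2 were also called lower there, at -2.08, -1.81, -1.20 and -1.15. Cdh1 and Krt18 had the only positive estimates of the list, 0.82 and 0.76, and neither passed. The part of these markers in the S100b result was not tested. Of the 10 Schwann and satellite glia markers only 2, Mbp and Sox10, passed the filter on low counts in these comparisons. Mbp, a myelin protein, was 22.4 to 37.0 CPM in DMSO at 5 days and 30.8 to 118 CPM in the other 7 libraries. It moved opposite to S100b in TRULI after recovery against DMSO at 5 days, where it rose by 1.54 on the log2 scale (SE 0.38, edgeR adjusted p = 0.0268). Sox10, which supporting cells also express, was 9.36 to 40.3 CPM, and its range in DMSO at 5 days (18.4 to 40.3 CPM) overlapped that of the rest. In the same comparison as Mbp its estimate had the sign of S100b, at -0.69 on the log2 scale (SE 0.44, edgeR adjusted p = 0.294), and did not pass. S100b overlaps Dip2a on the other strand, which had 66 to 261 counts against 396 to 3473 for S100b, and the counting was not stated to use strand, so reads of the overlap cannot be told apart.

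At 5 days by the labels S100b was lower with TRULI by a log2 fold change of -2.64 (SE 0.34), from 839 ± 121 CPM (SD, n = 3) to 132 ± 10.5 CPM (SD, n = 3), with an edgeR adjusted p of 0.151 (unadjusted 2.73e-05), and so did not pass. By the deposited names it fell with TRULI at 5 days, by 1.99 on the log2 scale (SE 0.29, edgeR adjusted p = 0.00638). With the agreeing libraries alone, the 3 of DMSO at 5 days against the single TRULI library of 5 days, the log2 fold change was -2.65 (edgeR adjusted p = 0.0169), a fit added after the data were seen in which the spread came from DMSO alone.

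After recovery the S100b log2 fold change between TRULI and DMSO was -0.85 (SE 0.35, edgeR adjusted p = 0.184) by the labels, with both TRULI libraries below both of DMSO, and 0.05 (SE 0.41) by the deposited names, with overlap. Neither passed. The difference between the TRULI effect after recovery and that at 5 days, tested as an interaction in a fit of all 10 libraries, was 1.81 (SE 0.46, edgeR adjusted p = 0.638, unadjusted 0.00187) by the labels and 2.05 (SE 0.44, edgeR adjusted p = 0.218, unadjusted 4.58e-04) by the deposited names. DESeq2 gave adjusted p of 0.0121 and 0.00707 for the same contrasts, so this call turned on the tool. By the deposited names S100b also fell with culture time in DMSO, by 2.67 on the log2 scale (SE 0.34, edgeR adjusted p = 0.00126), while the labels gave -1.78 (SE 0.34, edgeR adjusted p = 0.188).

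**Figure D2:**
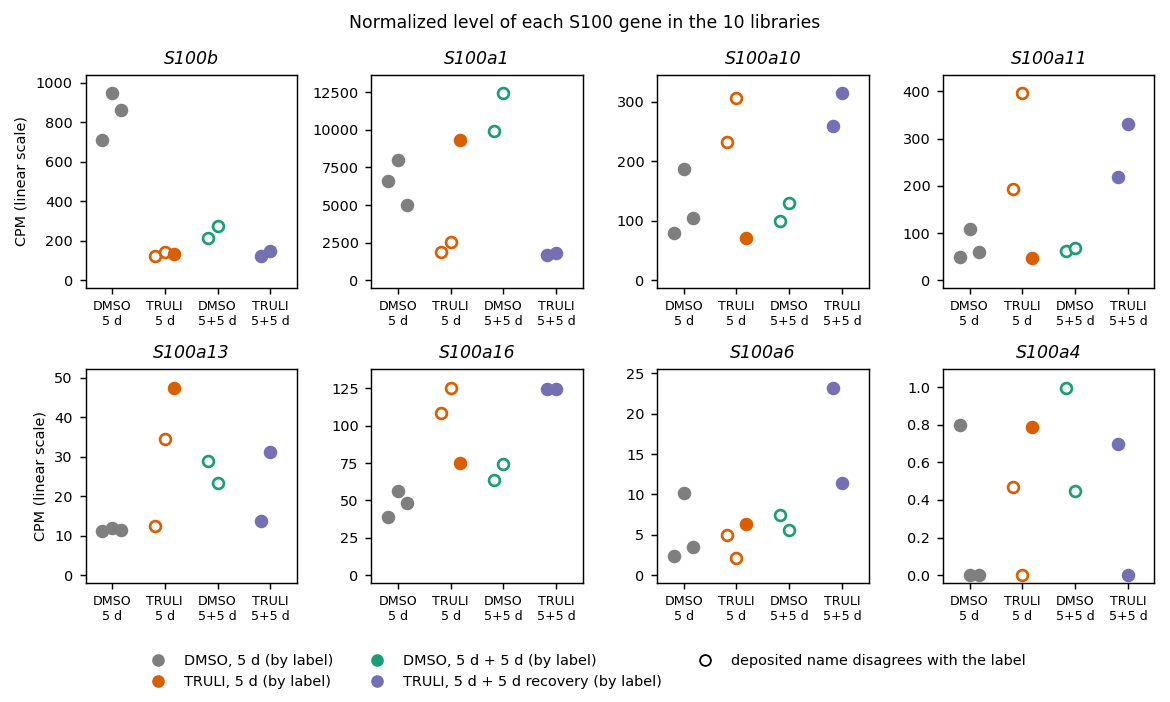
Each panel plots 1 gene in CPM (linear scale) for the 10 libraries, grouped and coloured by label; open circles are the 4 libraries whose deposited name disagrees. S100b is high only in the 3 grey points of DMSO at 5 days (708 to 946 CPM), while for S100a1, S100a10, S100a11 and S100a16 the open points of TRULI at 5 days sit with TRULI after recovery.

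S100a1 followed another pattern. Its level was 6583, 8022 and 5028 CPM in DMSO at 5 days, 1875, 2517 and 9348 CPM in the libraries labelled TRULI at 5 days, 9942 and 12429 CPM in those labelled DMSO after recovery, and 1696 and 1844 CPM in TRULI after recovery. The 4 libraries of low mt-Rnr2 were all below the other 6, and replicate 3 labelled TRULI at 5 days stood with the DMSO libraries and apart from its labelled partners. By the labels the 5-day log2 fold change was thus -0.49 (SE 0.64, edgeR adjusted p = 0.728), and by the deposited names it was 0.72 (SE 0.25, edgeR adjusted p = 0.179), with all 3 TRULI libraries above the 3 of DMSO. With the replicate number as a block, which the deposited names allow, the latter was 0.73 with an edgeR adjusted p of 0.0306, within the fold limit. After recovery S100a1 fell by 2.66 on the log2 scale by the labels (SE 0.37, edgeR adjusted p = 0.0312), while by the deposited names the log2 fold change was -0.30 (SE 0.32). The direction at 5 days and the call after recovery therefore depended on which source of the condition was used.

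S100a10 (p11), the partner of annexin A2 at the plasma membrane, and S100a11, which binds annexins and acts in membrane repair, were high in the 4 libraries where S100a1 was low. S100a10 was 79.3, 187 and 105 CPM in DMSO at 5 days, 232, 307 and 70.9 CPM in the libraries labelled TRULI at 5 days, 100 and 130 CPM in those labelled DMSO after recovery, and 260 and 315 CPM in TRULI after recovery. S100a11 was 48.9, 109 and 58.9 CPM, then 193, 396 and 46.9 CPM, then 61.8 and 69.2 CPM, then 218 and 330 CPM in the same order. Both genes were higher in all 4 libraries of low mt-Rnr2 than in any of the other 6.

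The test of S100a11 gave a log2 fold change of 1.57 (SE 0.67, edgeR adjusted p = 0.358) at 5 days by the labels and -0.26 (SE 0.31, edgeR adjusted p = 0.746) by the deposited names. After recovery it rose by the labels, by 2.07 (SE 0.37, edgeR adjusted p = 0.0455), and by the deposited names the estimate was -0.10 (SE 0.45). S100a10 gave 0.74 (SE 0.55, edgeR adjusted p = 0.536) and -0.27 (SE 0.33, edgeR adjusted p = 0.748) at 5 days, and 1.32 (SE 0.35, edgeR adjusted p = 0.0823) and 0.10 (SE 0.37) after recovery. With the replicate block the recovery value of S100a10 by the labels was 1.33 (edgeR adjusted p = 0.0270). By the labels the libraries of a block are not known to share more than their number, so that value is given as an alternative only.

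Anxa2, annexin A2 itself, is named here as the partner of S100a10 and after its values were seen. It was 476, 532 and 760 CPM in DMSO at 5 days, 6217, 11167 and 750 CPM in the libraries labelled TRULI at 5 days, 562 and 1713 CPM in those labelled DMSO after recovery, and 7419 and 7987 CPM in TRULI after recovery. It split the libraries into the same sets as S100a10 and S100a11, with 6217 to 11167 CPM in the 4 of low mt-Rnr2 and 476 to 1713 CPM in the other 6.

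S100a13, which takes part in the release of Fgf1 and interleukin 1 alpha outside the secretory pathway, was close to even in DMSO at 5 days and scattered elsewhere. Its level was 11.2, 11.9 and 11.4 CPM in DMSO at 5 days, 12.5, 34.6 and 47.4 CPM in the libraries labelled TRULI at 5 days, 28.9 and 23.4 CPM in those labelled DMSO after recovery, and 13.6 and 31.2 CPM in TRULI after recovery. In CPM all 7 other libraries were above all 3 of DMSO at 5 days, the lowest of them narrowly. In FPKM that lowest library, replicate 1 labelled TRULI at 5 days, was below them, at 27.7 against 28.3 to 30.6. By the labels the 5-day log2 fold change was 1.47 (SE 0.52, edgeR adjusted p = 0.332), and by the deposited names S100a13 rose with TRULI at 5 days by 1.55 (SE 0.33, edgeR adjusted p = 0.0316). The fit of agreeing libraries gave 2.04 (edgeR adjusted p = 0.0305), again with 1 TRULI library. After recovery the log2 fold change was -0.22 (SE 0.55) by the labels and -0.07 (SE 0.73) by the deposited names.

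S100a16, a widely expressed member of less settled function, was 38.9, 56.0 and 48.0 CPM in DMSO at 5 days, 108, 125 and 75.4 CPM in the libraries labelled TRULI at 5 days, 63.8 and 74.1 CPM in those labelled DMSO after recovery, and 124 and 125 CPM in TRULI after recovery. In CPM, as for S100a13, all 7 other libraries lay above DMSO at 5 days, and the 4 of low mt-Rnr2 lay above all of the rest. In FPKM S100a16 overlapped between these last sets, at 142 in replicate 3 labelled TRULI at 5 days and 131 to 167 in the 4. Its log2 fold change at 5 days was 1.13 (SE 0.34, edgeR adjusted p = 0.323) by the labels and 0.60 (SE 0.22, edgeR adjusted p = 0.203) by the deposited names, higher in 3 of 3 TRULI libraries by both. After recovery it was 0.86 (SE 0.35, edgeR adjusted p = 0.183) and 0.10 (SE 0.41).

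S100a6 (calcyclin), a binder of Cacybp found in proliferating and stressed cells, was low, with 6 to 133 counts a library. It was 2.40, 10.2 and 3.48 CPM in DMSO at 5 days, 5.02, 2.16 and 6.32 CPM in the libraries labelled TRULI at 5 days, 7.48 and 5.61 CPM in those labelled DMSO after recovery, and 23.2 and 11.4 CPM in TRULI after recovery. In CPM the 2 TRULI libraries after recovery were the highest of the 10. In FPKM S100a6 was higher in replicate 2 of DMSO at 5 days (44.4) than in replicate 2 of TRULI after recovery (33.4). At 5 days its log2 fold change was -0.22 (SE 0.76) by the labels and 0.29 (SE 0.56) by the deposited names, and after recovery it was 1.41 (SE 0.66, edgeR adjusted p = 0.232) and 2.25 (SE 0.87), neither of which passed. S100a4 did not pass the filter on low counts in any comparison, and no difference was detectable at its depth, where 3 counts of a library's total equal 0.480 to 1.22 CPM.

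Protein-coding genes were called changed when the edgeR adjusted p was below 0.05 and the log2 fold change was above 1 or below -1. At 5 days by the labels 0 of the 7 tested genes were changed, against 0.00945% of all genes tested. At an unadjusted p under 0.05 edgeR gave 4 of 7 (S100b, S100a11, S100a13 and S100a16), against 13.7% of all, and DESeq2 called 1, S100b. Overlap of groups was judged in CPM here and below. The groups did not overlap for 3 of 7 (S100b, S100a13 and S100a16), against 18.4% of all genes tested. In FPKM those of S100a13 did. Leaving out replicate 3 of TRULI, the only agreeing TRULI library at 5 days, gave 4 changed genes: S100a11 and S100a16 higher and S100b and S100a1 lower. By the deposited names that fit sets DMSO after recovery against DMSO at 5 days. The same contrast by name, in the fit of all 10 libraries, called 17.8% of all genes tested. By the deposited names 2 of 7 were changed at 5 days, S100a13 higher and S100b lower, against 3.09% of all genes tested, and 4 of 7 did not overlap, against 21.4%. In fits without the replicate block, both calls were lost without replicate 2 of DMSO, and S100a13 was lost also without replicates 1 or 3 of DMSO or replicates 1 or 2 of TRULI by name. With the block and all 6 of these libraries S100b was at -2.04 (edgeR adjusted p = 6.39e-05) and S100a13 at 1.48 (edgeR adjusted p = 0.00825). With all 10 libraries in 1 fit and no block S100a13 did not pass (edgeR adjusted p = 0.192).

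After recovery by the labels 2 of 7 were changed, S100a11 higher and S100a1 lower, against 2.05% of all genes tested, and 6 of 7 did not overlap, against 58.1%. Without either DMSO library S100a1 alone was called, without TRULI replicate 1 S100a10 was called as well, and without TRULI replicate 2 both S100a10 and S100a6 were. By the deposited names 0 of 7 were changed by edgeR, against 0% of 10845 genes tested. There 1 of 7, S100a6, had an unadjusted p under 0.05, against 4.52% of all, 2 of 7 did not overlap, against 28.7%, and DESeq2 called 0.

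The comparison of TRULI after recovery (2 libraries) with DMSO at 5 days (3 libraries) rests on agreeing libraries alone, but treatment, culture time and mt-Rnr2 share differ together in it and cannot be told apart. There 5 of 7 genes were changed, against 19.7% of all genes tested. S100b fell by 2.63 on the log2 scale (SE 0.29, edgeR adjusted p = 0.00376) and S100a1 fell by 1.89 (SE 0.30, edgeR adjusted p = 0.00800). S100a11 rose by 1.92 (SE 0.38, edgeR adjusted p = 0.0140), S100a16 by 1.38 (SE 0.29, edgeR adjusted p = 0.0156) and S100a10 by 1.21 (SE 0.37, edgeR adjusted p = 0.0482). S100a6 at 1.68 (SE 0.69, edgeR adjusted p = 0.112) and S100a13 at 0.95 (SE 0.48, edgeR adjusted p = 0.183) did not pass. All 7 had groups that did not overlap in CPM, against 53.1% of all genes tested, though those of S100a6 overlapped in FPKM. S100b and S100a1 were called with each library left out in turn, and without DMSO replicate 1 or 3 they were the only 2. S100a10 lay at the threshold: with mitochondrial genes left out before scaling its log2 fold change was 1.20 with an edgeR adjusted p of 0.0502.

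**Figure D3:**
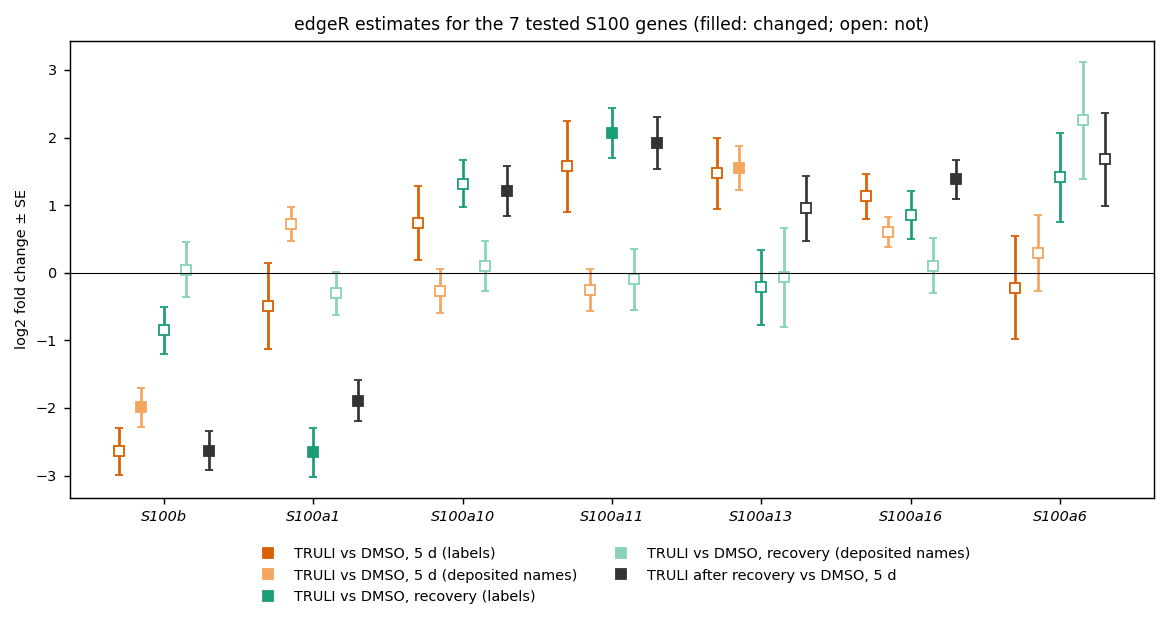
Squares give the edgeR log2 fold change and bars its SE for the 7 tested genes in 5 comparisons; filled squares are genes called changed and open squares are not. The estimates by labels and by deposited names lie on opposite sides of 0 at 5 days for S100a1, S100a10, S100a11 and S100a6, and on the same side for S100b, S100a13 and S100a16.

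In 1 fit of all 10 libraries, culture time and withdrawal were compared within a treatment. With DMSO after recovery set against DMSO at 5 days, 0 of 7 genes were changed by the labels (0.0336% of all genes tested; 1 of 7 at an unadjusted edgeR p under 0.05, against 5.58%, and 1, S100b, by DESeq2) and 5 of 7 by the deposited names (17.8% of all). By the names S100b and S100a1 fell, S100a1 by 1.58 on the log2 scale (SE 0.29, edgeR adjusted p = 0.00464), and S100a11, S100a16 and S100a10 rose, S100a11 by 2.02 (SE 0.40, edgeR adjusted p = 0.00654). The count was 2 without replicate 2 labelled TRULI at 5 days, which the deposited names make DMSO after recovery. With TRULI withdrawn set against TRULI present, 0 of 7 were changed by the labels (0% of all; 2 of 7 at an unadjusted edgeR p under 0.05, against 7.67%, and 0 by DESeq2) and 3 of 7 by the deposited names (17.5% of all). By the names S100a1 fell by 2.58 (SE 0.30, edgeR adjusted p = 6.57e-04), S100a11 rose by 2.21 (SE 0.40, edgeR adjusted p = 0.00447) and S100a10 rose by 1.51 (SE 0.36, edgeR adjusted p = 0.0156). The interaction of treatment and recovery gave 0 of 7 by edgeR in both readings (0% of all), 2 of 7 at an unadjusted p under 0.05, S100b and S100a1, against 6.65% by the labels and 9.31% by the names, and 1 by DESeq2, S100b.

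**Figure D4:**
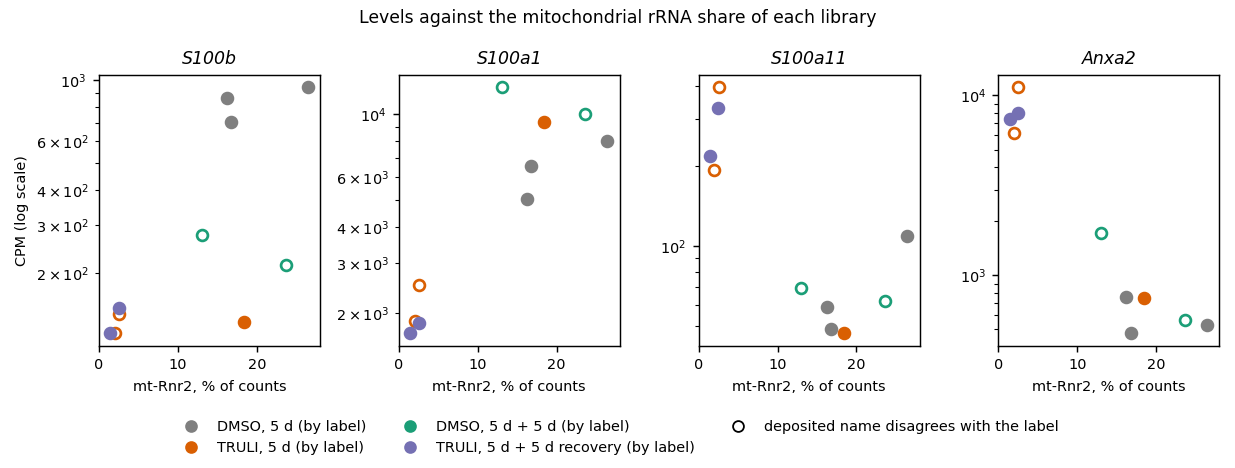
Level in CPM (log scale) of S100b, S100a1, S100a11 and Anxa2 is plotted against the percent of counts from mt-Rnr2 in each library; open circles are the 4 disputed libraries. The 4 libraries at 1.45 to 2.53% are lowest for S100a1 (1696 to 2517 CPM) and highest for S100a11 (193 to 396 CPM) and Anxa2, while for S100b the 6 libraries of high mt-Rnr2 spread from 133 to 946 CPM.

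The 4 genes that split the libraries by mt-Rnr2 share in CPM were S100a1 (1696 to 2517 CPM against 5028 to 12429 CPM), S100a10 (232 to 315 against 70.9 to 187 CPM), S100a11 (193 to 396 against 46.9 to 109 CPM) and S100a16 (108 to 125 against 38.9 to 75.4 CPM). In FPKM S100a16 overlapped between the sets. S100b, S100a13, S100a6 and S100a4 overlapped between the 2 sets. Lfng, whose reporter was used for the sort, was 21.2 to 100 CPM in the 4 libraries of low mt-Rnr2 and 291 to 564 CPM in the other 6. Of the 7 striated muscle markers, looked at because S100a1 is known from muscle, 6 had at most 5 counts in a library. The other one, Myod1, named after its values were seen, was 14.5 to 89.3 CPM in the 4 libraries of low mt-Rnr2 and at most 0.401 CPM in the other 6. The part of these differences in the S100 results was not tested, and by the labels the low-mt-Rnr2 set holds 4 of the 5 TRULI libraries and no DMSO library. The same 4 libraries are, by the deposited names, the 2 of DMSO and the 2 of TRULI after recovery, and the other 6 are all those of 5 days, so that in that reading the split falls between the culture times.

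Among 27 known binding partners of S100 proteins, 21 were tested at 5 days by each reading, 0 were changed by the labels and 1 by the deposited names. This was Trp53, the tumour suppressor p53, which rose by 1.36 on the log2 scale (SE 0.31, edgeR adjusted p = 0.0414). The median log2 fold change of the list was 0.14 by the labels and -0.10 by the names, against 0.04 and 0.02 over all genes tested. After recovery 0 of 23 partners by the labels and 0 of 22 by the names were changed. The shares over all genes tested were 0.00945% and 3.09% at 5 days and 2.05% and 0% after recovery, by the labels and the names. In TRULI after recovery against DMSO at 5 days 6 of 22 were changed, against 19.7% of all genes tested. Named after their values were seen, Anxa2 rose by 3.70 (SE 0.29, edgeR adjusted p = 0.00133), Trp53 by 1.70 and Mdm4, an inhibitor of p53, by 1.25. Cacybp, the partner of S100a6, fell by 1.44 (SE 0.37, edgeR adjusted p = 0.0287), the chaperone adaptor Sugt1 by 1.66 and the kinase Stk38, a partner of S100b, by 2.59. Ager, the receptor for extracellular S100 proteins, was at 0 to 2.85 CPM.

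Among 28 other EF-hand calcium sensors and buffers, 0 of 22 were changed at 5 days in either reading, and 0 of 23 by the labels and 0 of 21 by the names after recovery. Over all genes tested the changed shares were 0.00945% by the labels and 3.09% by the names at 5 days, and 2.05% and 0% after recovery. Calm2, which encodes the calcium sensor calmodulin, was at 749 to 1293 CPM in the 4 libraries of low mt-Rnr2 and at 268 to 548 CPM in the other 6. In TRULI after recovery against DMSO at 5 days 6 of 22 were changed, 5 higher and 1 lower, against 19.7% of all genes tested, with Calm2 at a log2 fold change of 1.91 (SE 0.27, edgeR adjusted p = 0.00625).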

How the data were processed

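Poly(A)-enriched RNA from sorted supporting cells was sequenced in 10 libraries. The authors mapped reads to GRCm38/mm10 with STAR and deposited, without normalization, 1 table of expected counts per library, with the effective length of each gene; the counting program is not given in the sources used here. Symbols came from GENCODE M21, the build of the tables.

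The expected counts were rounded and compared with edgeR 4.0.16 (R 4.3.3), by its quasi-likelihood test, with filterByExpr as the filter, TMM scaling and Benjamini-Hochberg adjustment over all genes tested; the script was tested on simulated data. CPM use TMM factors over all 10 libraries. FPKM were computed from counts, effective lengths and protein-coding totals. Labels set the main groups and deposited names the other reading. DESeq2 1.42.0, its size factors, no filter, 1 fit of all libraries, mitochondrial genes left out, adjusted p alone, a replicate block and leaving out each library were alternatives. No pair of libraries was alike within sampling noise (chi-square per degree of freedom of at least 16.7).

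By the deposited names, same-numbered libraries deviated together at 5 days (correlations of 0.156 to 0.332), so their numbers were taken to pair them. By the labels they did not (-0.164 to 0.0493). Every one of the 8 genes was named in each comparison, and for other lists those changed at 5 days or after recovery, or the most abundant, unless marked. The genes and lists were chosen with earlier results of these data known.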

Additional observations from a re-analysis of the deposited data

How the results depend on the processing

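Counts and directions moved with the source of the condition and with single libraries. With deposited names in place of labels the number of changed S100 genes went from 0 to 2 at 5 days, from 2 to 0 after recovery, from 0 to 5 for culture time in DMSO and from 0 to 3 for TRULI withdrawn against present. Directions turned at 5 days for S100a1 (0.72), S100a6 (0.29), S100a10 (-0.27) and S100a11 (-0.26), after recovery for S100b (0.045) and S100a11 (-0.10), for culture time for S100a1 (-1.58), S100a6 (-0.53), S100a10 (1.12) and S100a11 (2.02), and for TRULI withdrawn against present for S100b (-0.61), all log2 fold changes. With agreeing libraries alone, chosen after seeing the data, 2 genes were changed at 5 days, and the values of S100a1 (0.52), S100a6 (0.24), S100a10 (-0.80) and S100a11 (-0.62) turned; the cause was not tested.

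By the labels, the count at 5 days was 1 with DESeq2, 2 with no filter and 1 with all 10 libraries in 1 fit, and the count after recovery was 0 with all 10 libraries. By the deposited names the count at 5 days was 1 with all 10 libraries. Culture time in DMSO by the labels gave 1 with DESeq2 and 1 with no filter. The interaction gave 1 with DESeq2 by the labels, and 1 with DESeq2 and 1 with no filter by the names.

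With the replicate number as a block, the number of changed S100 genes was 0 at 5 days and 3 after recovery by the labels, where the numbers share no more than a number, and 2 and 0 by the names, where they pair the 5-day libraries. Over all genes the block moved the 5-day count by the names from 230 higher and 109 lower to 460 and 212. The block changed no other count of S100 genes.

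Leaving out each library in turn, by the labels the count ran from 0 to 4 at 5 days, 1 to 4 after recovery and 0 to 1 for culture time, and was 0 throughout for TRULI withdrawn against present and the interaction. By the names it ran from 0 to 2 at 5 days, 2 to 5 for culture time and 2 to 3 for TRULI withdrawn against present, and was 0 throughout after recovery and for the interaction. In TRULI after recovery against DMSO at 5 days it ran from 2 to 6. Log2 fold changes of uncalled genes that crossed 0 ran as follows. By the labels S100a6 ran from -0.57 to 0.61 at 5 days and -0.056 to 1.14 for culture time, where S100a10 ran from -0.34 to 0.34 and S100a11 from -0.35 to 0.29. S100a13 ran from -0.95 to 0.24 after recovery, and for TRULI withdrawn against present S100b ran from -0.12 to 0.18 and S100a11 from -0.097 to 1.19. By the names at 5 days S100a6 ran from -0.053 to 1.12, S100a10 from -0.52 to 0.14 and S100a11 from -0.48 to 0.15. After recovery S100b ran from -0.11 to 0.18, S100a10 from -0.099 to 0.32, S100a11 from -0.53 to 0.52, S100a13 from -0.77 to 0.85 and S100a16 from -0.011 to 0.22. For culture time S100a6 ran from -1.29 to 0.32, and for the interaction S100a10 ran from -0.030 to 0.63 and S100a11 from -0.25 to 0.78. Depth limits S100a6 and S100a4 most.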

Other observations

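The profile of each S100 gene over the 10 libraries was set beside those of 8273 protein-coding genes with a mean of at least 10 CPM, by the root-mean-square difference of log2(CPM + 0.5) values centred on their mean. For S100b, the gene with the largest SD over libraries, the 3 nearest were Bdh2 at 0.42, Cyp2j9 at 0.51 and Rapgef4 at 0.52. For the others the nearest were Ncaph2 for S100a1 (0.23), Mrps9 for S100a10 (0.20), Gm266 for S100a11 (0.20), Rasl11b for S100a13 (0.30), Carm1 for S100a16 (0.18), Lcorl for S100a6 (0.39) and Ttll4 for S100a4 (0.30). The distance for S100a4 rests on at most 4 counts a library. These distances describe 10 libraries that share depth and mt-Rnr2 differences, and carry no test.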
